A study of Mus musculus with 16 samples.

Results

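The genes described here encode granule proteins and alarmins of neutrophils, measured in whole left lungs of mice that met second-hand smoke before birth, in adult life, at both times or never. The set comprised 10 genes, namely S100a8, S100a9, Ngp, Camp, Ltf, Lcn2, Mmp8, Mmp9, Il1r2 and Retnlg. Every probe set whose platform symbol was one of these was taken, which gave 10 probe sets for 9 genes, of 45037 probe sets and 18193 named genes measured. Mmp9 had 2 probe sets and each of the other 8 genes had 1, while Retnlg was not analysed here. No expression value entered the choice of probe sets for these genes, but the genes were chosen with earlier results of these data known.

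The animals were male Balb/c mice of 15 weeks of age. Sidestream cigarette smoke, here second-hand smoke (SHS), was given at a particle load of 10 mg/m3 (5 hours daily, 7 days weekly), and control animals breathed filtered air. SS mice met SHS in utero and as adults, AS mice met air in utero and SHS as adults, SA mice met SHS in utero and air as adults, and AA mice breathed filtered air at both times. The labels give no litter, hour of collection, hybridisation date or number of days of exposure. Each group had 4 arrays (Affymetrix, 1 colour). AS replicates 3 and 4 were near-identical, as were SS replicates 1 and 2, so the mean of each pair stands for 1 sample and the groups hold 3 SS, 3 AS, 4 SA and 4 AA samples. Values are the deposited log2 expression values, so a difference of 1 is a 2-fold change. The lung epithelial markers were bright in all 14 samples, with a list mean between 11.6 and 12.0 over 14 genes.

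Neutrophils are granulocytes that are made in the bone marrow, circulate in blood and are held in large numbers in the capillaries of the lung. They form their granules in waves. Primary granule proteins such as myeloperoxidase and neutrophil elastase are transcribed first, in promyelocytes. Specific granule proteins (Ngp, Camp, Ltf, Lcn2) follow in myelocytes, and gelatinase granule proteins (Mmp9) follow later, while S100a8 and S100a9 mRNA stays abundant in the mature circulating cell. Transcription factors of the C/EBP family drive much of this programme. In whole tissue, fewer cells of a type and less RNA per cell cannot be told apart.

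The promoters of genes whose levels moved together or apart across the samples, and of Il1r2, are shown first. Each sequence is the 150 bases before the RefSeq transcript start, read 5′ to 3′ on the gene's own strand in build GRCm38.p6, and capitals mark matches to the C/EBP pattern TTNNGNAA on either strand. The RefSeq promoter table held 9 of the 10 genes and not Mmp9. S100a8 and S100a9 lie on chromosome 3 and their windows are chr3:90668921-90669070 (plus strand) and chr3:90695722-90695871 (minus strand).
S100a8: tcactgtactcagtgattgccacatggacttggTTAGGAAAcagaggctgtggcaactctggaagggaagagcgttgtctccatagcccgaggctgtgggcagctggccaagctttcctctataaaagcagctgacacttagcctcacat
S100a9: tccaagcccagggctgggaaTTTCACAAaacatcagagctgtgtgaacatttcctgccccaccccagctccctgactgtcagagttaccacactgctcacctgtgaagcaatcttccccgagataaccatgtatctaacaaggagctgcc
Ngp and Camp both lie on chromosome 9, with windows chr9:110419658-110419807 (plus strand) and chr9:109849457-109849606 (minus strand).
Ngp: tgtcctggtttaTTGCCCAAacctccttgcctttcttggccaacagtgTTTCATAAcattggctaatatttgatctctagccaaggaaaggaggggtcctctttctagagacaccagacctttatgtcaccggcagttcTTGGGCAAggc
Camp: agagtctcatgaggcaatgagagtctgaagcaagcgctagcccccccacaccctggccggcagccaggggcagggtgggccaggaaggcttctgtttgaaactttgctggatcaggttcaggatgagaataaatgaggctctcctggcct
Ltf (also on chromosome 9) has the window chr9:111019142-111019291 (plus strand), and Lcn2, on chromosome 2, has chr2:32387740-32387889 (minus strand).
Ltf: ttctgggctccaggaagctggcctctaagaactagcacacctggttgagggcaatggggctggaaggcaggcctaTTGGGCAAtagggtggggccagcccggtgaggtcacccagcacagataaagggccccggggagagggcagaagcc
Lcn2: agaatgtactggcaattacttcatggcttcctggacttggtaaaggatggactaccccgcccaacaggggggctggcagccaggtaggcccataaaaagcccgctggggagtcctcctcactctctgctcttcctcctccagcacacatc
Il1r2 lies on chromosome 1 and its window is chr1:40085943-40086092 (plus strand).
Il1r2: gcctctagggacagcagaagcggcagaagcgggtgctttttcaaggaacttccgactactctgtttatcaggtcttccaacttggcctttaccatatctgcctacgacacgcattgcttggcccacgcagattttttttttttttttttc
Positions are counted back from the base before the transcript start, which is -1. S100a8 had a C/EBP match at -117 to -110, S100a9 at -130 to -123 and Ltf at -75 to -68. Ngp had 3 matches, at -138 to -131, -102 to -95 and -11 to -4, and Mmp8, whose sequence is not shown, had 1 at -19 to -12. In all, 5 of the 9 windows held the C/EBP pattern, against 22.7% of the 32851 RefSeq mouse promoters cut to the same length. The PU.1 pattern GAGGAA, searched on both strands, was in S100a8 at -36 to -31 and in Lcn2 at -20 to -15, so in 2 of the 9 windows against 14.5% of all promoters. No C/EBP match overlapped a PU.1 match. These matches describe letters in a window and were not measured as sites.

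S100a8 and S100a9 encode the subunits of calprotectin, a calcium-binding alarmin that makes up a large share of neutrophil cytosol and signals through Toll-like receptor 4 and RAGE. Neither passed the test in any comparison, and their widest spread was among the lungs of unexposed mice. S100a8 had log2 values of 11.08, 11.80 and 10.97 in SS lungs (the averaged pair, then replicates 3 and 4) and of 11.72, 12.49 and 10.96 in AS lungs (replicates 1 and 2, then the averaged pair). It had 11.64, 11.32, 10.67 and 10.78 in SA lungs and 12.59, 10.61, 11.83 and 11.76 in AA lungs. The lowest and the highest of all 14 samples were AA replicates 2 and 1, a 3.95-fold range, so that every other sample lay inside the range of the AA group. The means were 11.28 ± 0.45 in SS, 11.72 ± 0.76 in AS, 11.10 ± 0.46 in SA and 11.70 ± 0.82 in AA (SD, n = 3, 3, 4 and 4). The suffix of the S100a8 probe set, _s_at, marks a probe set that can share probes with other transcripts.

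S100a9 had log2 values of 10.98, 11.63 and 10.99 in SS lungs, 11.60, 12.30 and 10.70 in AS lungs, 11.32, 11.30, 10.66 and 10.71 in SA lungs, and 12.53, 10.37, 11.66 and 11.46 in AA lungs. The order of the samples was close to that of S100a8, again with AA replicate 2 lowest and AA replicate 1 highest. For S100a8, AS exceeded AA by 0.03 ± 0.41 on the log2 scale (standard error of the fit), a fold change of 1.02 with a 95% interval of 0.555 to 1.87 (limma adjusted p = 0.977). The interval of S100a9 was as wide, at 0.551 to 1.88 around a fold of 1.02 (limma adjusted p = 0.978). The SA minus AA differences were -0.59 ± 0.38 for S100a8 and -0.51 ± 0.38 for S100a9 (limma adjusted p = 0.877 and 0.907). They depended on single AA lungs, at -0.29 and -0.17 without AA replicate 1 and at -0.96 and -0.88 without AA replicate 2.

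Ngp, neutrophilic granule protein, and Camp, the precursor of the cathelicidin antimicrobial peptide CRAMP, are stored in specific granules and transcribed in bone marrow precursors. Ngp varied more than any other gene of the set. Its log2 values were 7.98, 5.87 and 6.77 in SS lungs, 8.94, 7.12 and 5.95 in AS lungs, 7.00, 7.22, 5.63 and 6.57 in SA lungs, and 6.75, 5.43, 6.58 and 5.78 in AA lungs. From AA replicate 2 to AS replicate 1 the level differed 11.4-fold. The highest samples, AS replicate 1 and the averaged SS pair, both came from adult SHS groups, but each of these groups also had a sample below 6. In AS this was the averaged pair, whose near-identical arrays read 6.28 and 5.63, so part of the spread at this level can be technical. All 4 groups overlapped.

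Camp had log2 values of 7.03, 5.71 and 6.41 in SS lungs, 7.69, 6.68 and 6.04 in AS lungs, 6.55, 6.50, 5.84 and 6.23 in SA lungs, and 6.18, 5.75, 6.36 and 5.98 in AA lungs. The same samples were highest as for Ngp. In AS against AA, the difference of Ngp was 1.20 ± 0.61, a fold change of 2.30 with a 95% interval of 0.929 to 5.71 (limma adjusted p = 0.28). Camp differed by 0.73 ± 0.34, a fold change of 1.66 with an interval of 1.01 to 2.73 (limma adjusted p = 0.236). Single samples moved both differences in either direction: without AS replicate 1 they were 0.40 for Ngp and 0.29 for Camp, and without the averaged AS pair they were 1.90 and 1.12. In SS against SA the differences were 0.27 ± 0.61 for Ngp and 0.10 ± 0.34 for Camp, neither past the threshold (limma adjusted p = 0.891 and 0.927).

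Ltf encodes lactoferrin, an iron-binding protein of specific granules that is also made by glandular and airway epithelium, and Lcn2 encodes lipocalin 2 (NGAL), which binds bacterial siderophores and is also made by stimulated epithelium and macrophages. Ltf had log2 values of 8.57, 8.18 and 8.46 in SS lungs, 9.03, 9.09 and 8.29 in AS lungs, 8.96, 9.33, 8.71 and 8.09 in SA lungs, and 9.45, 8.85, 9.44 and 8.09 in AA lungs. SS lungs stayed within 0.39 of each other, whereas the AA lungs spanned 1.36. The SS mean of 8.40 ± 0.20 (SD, n = 3) was below the AA mean of 8.96 ± 0.64 (SD, n = 4), a difference of -0.55 ± 0.32 that did not pass (limma adjusted p = 0.6).

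Lcn2 had log2 values of 10.35, 10.57 and 10.43 in SS lungs, 10.15, 10.31 and 10.87 in AS lungs, 10.27, 10.02, 10.19 and 10.71 in SA lungs, and 10.04, 10.12, 10.00 and 10.44 in AA lungs. The spread was the smallest of the set in fold terms, at 1.82-fold from the lowest to the highest sample. The averaged AS pair, SA replicate 4 and AA replicate 4 were the highest of their groups for Lcn2 and the lowest of their groups for Ltf. The differences of Lcn2 were 0.30 ± 0.17 in SS against AA and 0.29 ± 0.17 in AS against AA (limma adjusted p = 0.592 and 0.348), and the second was 0.08 without the averaged AS pair.

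Mmp8 encodes neutrophil collagenase, stored in specific granules, and Mmp9 encodes gelatinase B, which neutrophils store in gelatinase granules and which macrophages also make. Mmp8 had log2 values of 7.26, 7.89 and 7.25 in SS lungs, 7.63, 7.28 and 6.83 in AS lungs, 6.72, 6.72, 6.26 and 6.87 in SA lungs, and 7.68, 6.21, 7.04 and 7.08 in AA lungs. The 3 SS lungs were above all 4 SA lungs, while the AA lungs spanned both. The difference between SS and SA was 0.82 ± 0.28, a fold change of 1.77 with a 95% interval of 1.17 to 2.67, and did not pass after adjustment over all probe sets (limma adjusted p = 0.178).

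Mmp9 had its lowest mean in SS lungs. At its brighter probe set the log2 values were 7.81, 8.02 and 7.59 in SS lungs, 8.18, 8.48 and 8.01 in AS lungs, 8.42, 8.05, 7.98 and 8.22 in SA lungs, and 8.69, 7.99, 8.79 and 8.01 in AA lungs. The SS group held the lowest samples, and only SS replicate 3 reached the range of the other groups. Mmp9 was lower in SS than in AA by a log2 difference of -0.56 ± 0.19, a fold change of 0.677 with an interval of 0.51 to 0.899 (limma adjusted p = 0.293). At the second probe set the difference had the same sign, -0.33 ± 0.18 (limma adjusted p = 0.555). There the SS values of 6.82, 6.89 and 6.66 were all below the AS values of 7.07, 7.22 and 6.95, a difference of -0.29 ± 0.19 (limma adjusted p = 0.524).

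Il1r2 encodes the decoy receptor of interleukin-1, which binds the cytokine without signalling, is abundant on neutrophils and is known to be induced by glucocorticoids. It was the one gene of the set with a difference past the threshold. Its log2 values were 7.26, 7.99 and 7.25 in SS lungs, 7.07, 7.09 and 7.16 in AS lungs, 6.70, 6.57, 6.45 and 6.64 in SA lungs, and 7.09, 6.65, 6.75 and 7.23 in AA lungs. Of the 14 samples, all 3 SS lungs were above every other, and the SA lungs were lowest, with SA replicate 1 inside the AA range. The upper margin was small, with SS replicate 4 at 7.248 beside AA replicate 4 at 7.226. It also needed the averaging: SS replicates 1 and 2 read 7.17 and 7.36 as single arrays. The lower of these was below AA replicate 4 and AS replicate 3 (both 7.226). The order of the means was SS at 7.50 ± 0.42, AS at 7.11 ± 0.05, AA at 6.93 ± 0.27 and SA at 6.59 ± 0.11 (SD). Among neighbours in this order, AS overlapped with AA and AA overlapped with SA, and none of these steps passed the test.

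Il1r2 was higher in SS than in SA by 0.91 ± 0.16, a fold change of 1.88 with a 95% interval of 1.47 to 2.39 (limma adjusted p = 0.0112). Without SS replicate 3 the difference was 0.66 and just missed the threshold (limma adjusted p = 0.0529), and in the 13 other fits with 1 sample left out it passed. SS also exceeded AA, by 0.57 ± 0.16 (limma adjusted p = 0.192), and AS, by 0.39 ± 0.18 (limma adjusted p = 0.34). Neither difference passed, though the averaged samples did not overlap, and without SS replicate 3 these differences were 0.33 and 0.15. The adult SHS difference of Il1r2 was 0.18 ± 0.16 in mice from air in utero (AS minus AA, limma adjusted p = 0.562). The excess of the SS minus SA difference over it, 0.73 ± 0.23 with an interval of 0.24 to 1.23, did not pass the interaction test (limma adjusted p = 0.291), so the adult response is not shown to depend on the exposure before birth.

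**Figure D1:**
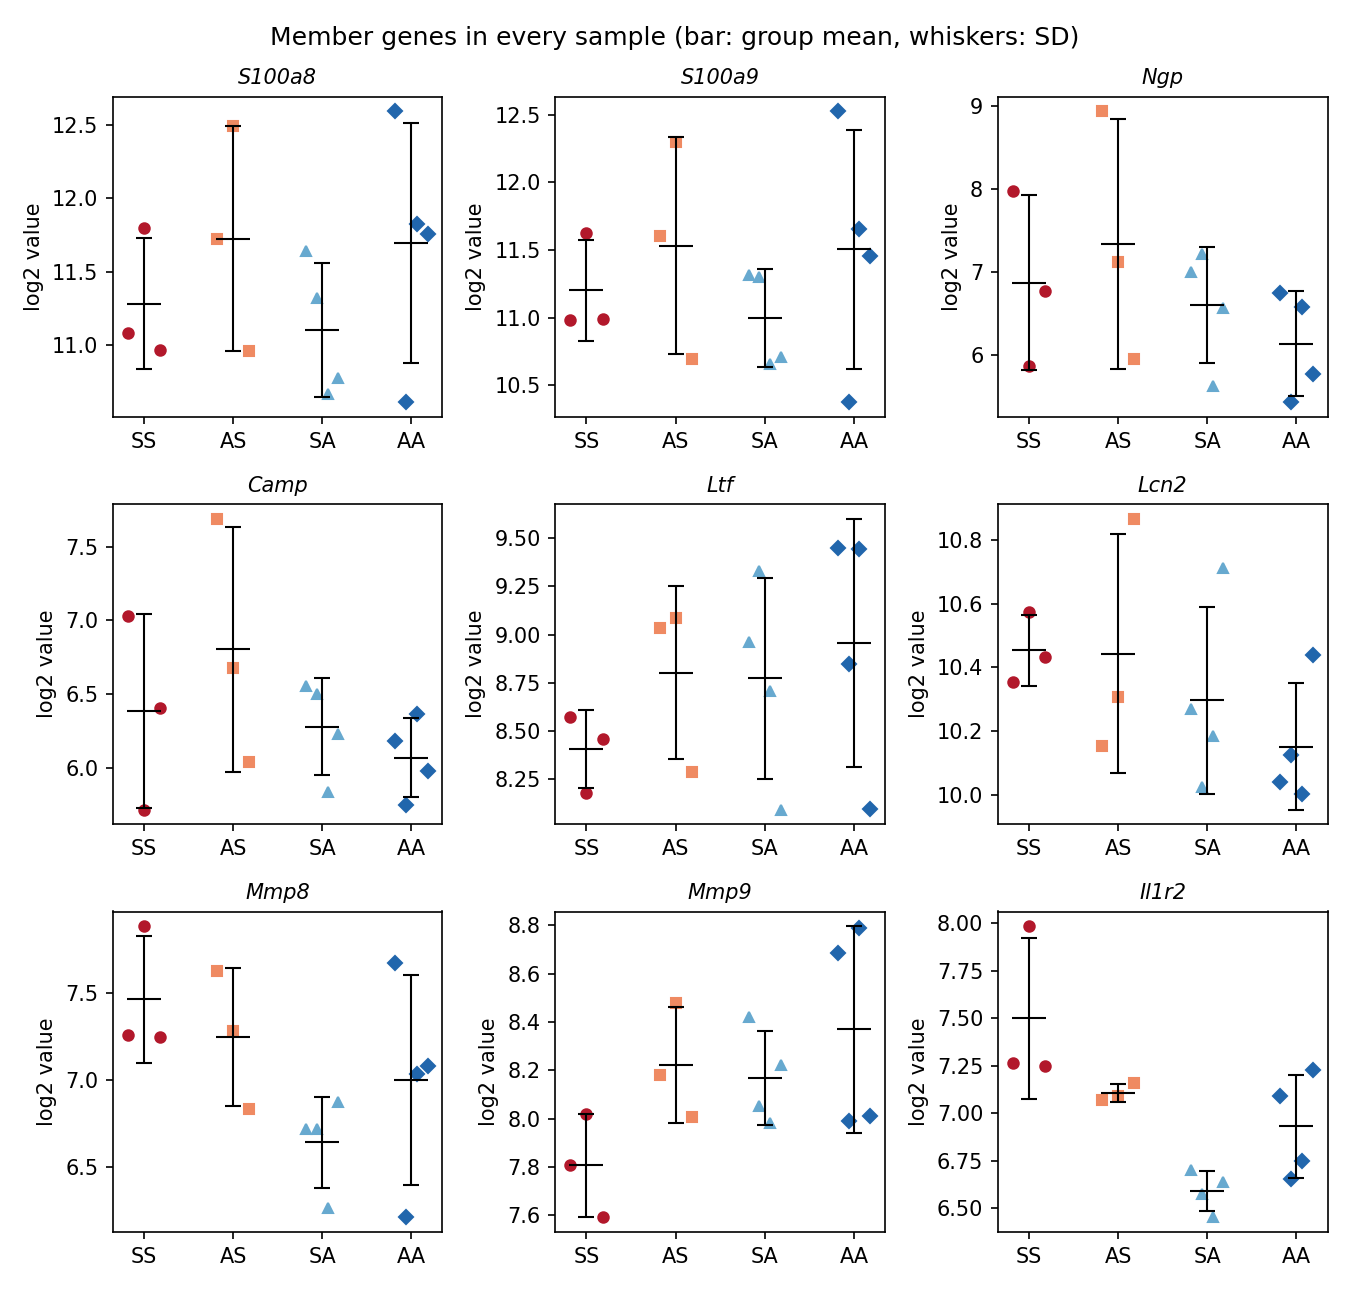
Log2 expression values (vertical axes, a separate scale in each panel) of the 9 genes in each of the 14 samples, by group from SS to AA. Points are samples, bars are group means and whiskers are SDs. The Il1r2 points of the 3 SS lungs lie above those of all other samples, and the S100a8 and S100a9 points of AA lungs span the whole range of the data.

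The comparisons were also read across the 10 probe sets, since the design asks for the effect of adult SHS after each exposure in utero, of SHS in utero at each adult exposure, and of both exposures against neither. Adult SHS after air in utero (AS minus AA) changed no probe set of the set past an adjusted p of 0.05 (limma), against 1.55% of all 45037 probe sets. At an unadjusted p below 0.05 the count was 1 of 10 (Camp), against 20.3% of all probe sets. None of the 10 was without overlap between AS and AA, against 16.3% of all. The median difference over the 9 genes was 0.18, with 7 above 0 and 2 below 0, beside a median of 0.02 over all named genes.

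Adult SHS after SHS in utero (SS minus SA) changed 1 of the 10 probe sets, Il1r2, upward (limma), against 1.64% of all probe sets in either direction and 0.773% upward. Unadjusted, 2 of 10 passed (Il1r2 and Mmp8), against 14.5% of all, and the same 2 had SS samples all above the SA samples. Over all probe sets, 16.7% had no overlap between SS and SA, and 7.97% had SS higher. The median over the 9 genes was 0.18, beside -0.01 over all named genes, with 7 above 0. Ltf and Mmp9 were the 2 below 0, at -0.37 and -0.36.

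SHS in utero in adults that breathed air (SA minus AA) changed none of the 10 probe sets, and 0% of all probe sets passed (limma). Unadjusted, 1 of 10 was below 0.05 (Il1r2, -0.34 ± 0.15), against 6.23% of all, and none of the 10 was without overlap, against 3.68%. The median of the 9 genes was -0.20, with 6 below 0, beside 0.00 over all named genes. SHS in utero in adults that breathed SHS (SS minus AS) also changed none of the 10 (limma), against 0.968% of all. Unadjusted, 1 of 10 passed (Il1r2), against 13.6%. The groups did not overlap at 2 of 10 (Il1r2 with SS higher, and the second Mmp9 probe set with SS lower), against 18.6% of all. The median was -0.40, with 6 of 9 genes below 0, beside -0.02 over all named genes.

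Both exposures against neither (SS minus AA) changed none of the 10 (limma), against 0.4% of all probe sets. Unadjusted, 2 of 10 passed (Il1r2 and Mmp9), against 10.3%, and at 1 of 10, Il1r2, the groups did not overlap, against 14.1%. The 9 genes were split, with 5 above 0 and 4 below 0 and a median of 0.30. The interaction called none of the 10 (limma), against 0.131% of all, and 1 of 10 unadjusted (Il1r2), against 9.11%. The comparisons share samples, with AA in 4 of the 6, so agreement between them is not counted here. With 10 probe sets, counts of 0 to 2 are too coarse to be set apart from background shares of this size.

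**Figure D2:**
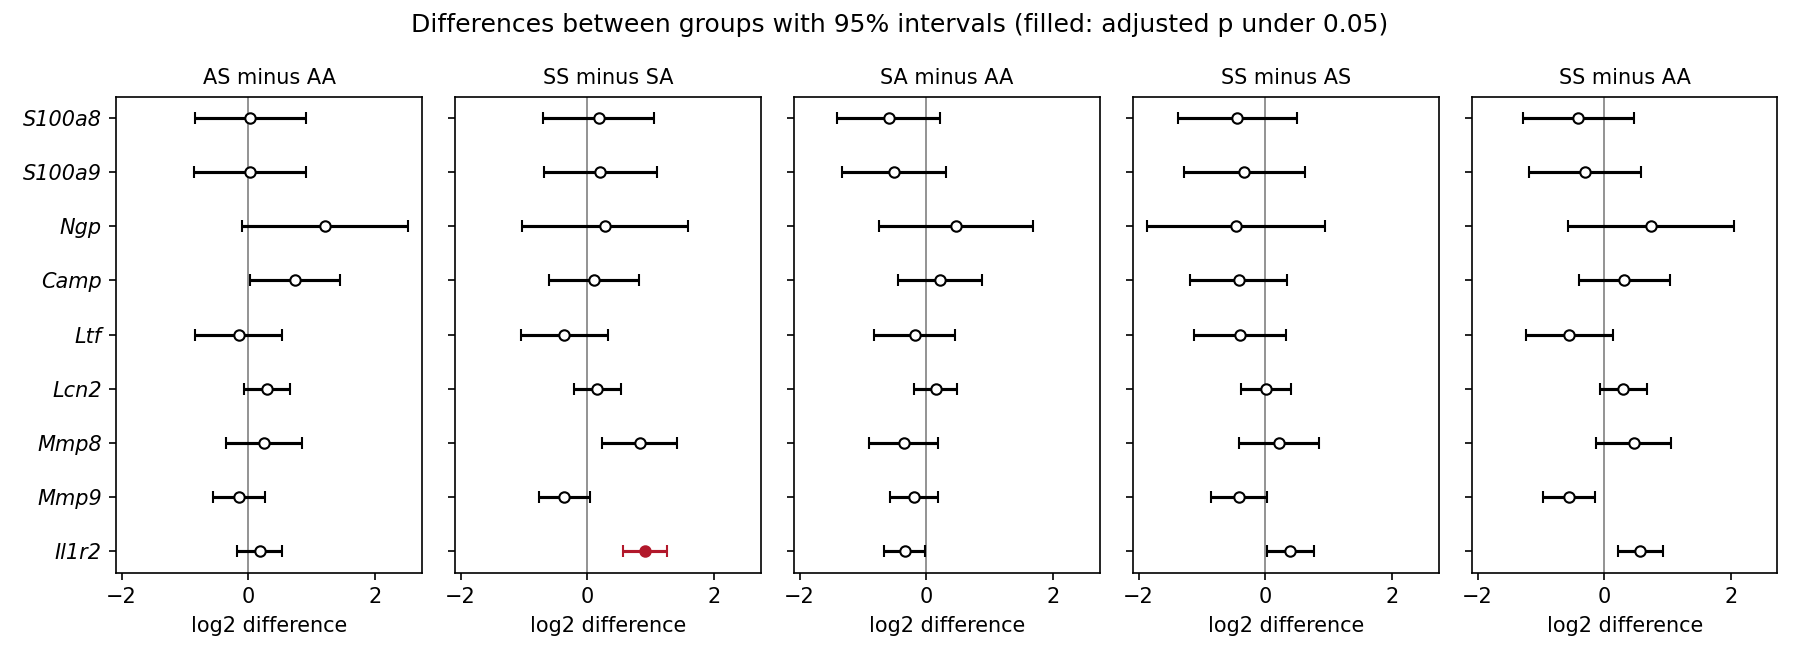
Log2 differences (horizontal axes) of the 9 genes in 5 comparisons, with 95% intervals from the fit; a filled point marks an adjusted p below 0.05. The one filled point is Il1r2 in SS minus SA, at 0.91, and the intervals of Ngp are the widest.

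The spread between animals within a group was wide for most of the set. The SD within groups was 0.97 for Ngp, 0.66 for S100a9, 0.65 for S100a8, 0.53 for Camp, 0.50 for Ltf and 0.43 for Mmp8, against a median of 0.12 over all probe sets. It was 0.29 for Mmp9, 0.26 for Lcn2 and 0.25 for Il1r2. By this SD, all 10 probe sets lay above the 94.88th percentile of the array, where Il1r2 stood, and 6 of them lay above the 99th. Differences between groups held 70.5% of the sum of squares of Il1r2, 41.0% of that of Mmp8 and 39.3% of that of Mmp9, but 14.4% to 25.6% for the 6 other genes, against a median of 32.5% over all probe sets. AA replicate 2 was the lowest of the 14 samples in 4 of the 9 genes, and AA replicate 1 the highest in 3.

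Across the 14 samples, S100a8 with S100a9 and Ngp with Camp had the highest correlations of the set. All 36 pairs of the 9 genes were tested, with permutation p-values adjusted over the 36. The permutations ignored the groups, so differences between groups can enter these p-values. S100a8 and S100a9 had Pearson's r = 0.985 and Spearman's rho = 0.987 (both permutation p = 1e-05, the smallest the permutations can give, adjusted 0.00018, n = 14). Without the 2 samples farthest from the median of S100a8, r was 0.97, and with group means removed it was 0.986. Ngp and Camp had r = 0.978 and rho = 0.947 (both permutation p = 1e-05, adjusted 0.00018), with r = 0.94 without the 2 farthest samples and 0.98 with group means removed.

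S100a8 had a lower r with the specific granule genes Ngp, Camp (0.242) and Ltf (0.47) than with S100a9. Mmp8, also stored in specific granules, is given below. S100a8 and Ngp had r = 0.293 and rho = 0.358 (permutation p = 0.311 and 0.209, adjusted 0.466 and 0.396, n = 14), and r was 0.319 without the 2 farthest samples. AA replicate 1, for example, had the highest S100a8 level of all samples and an Ngp level of 6.75, near the middle of the 14. Whether the correlation of S100a8 with S100a9 exceeds that with Ngp was not tested.

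Mmp8 went with the alarmins, with r = 0.675 and rho = 0.723 against S100a8 (permutation p = 0.00815 and 0.0045, adjusted 0.0419 and 0.0235), and with group means removed r was 0.813. Mmp8 also went with Il1r2, with r = 0.795 and rho = 0.728 (permutation p = 0.00052 and 0.00439, adjusted 0.00468 and 0.0235). With group means removed the r of Mmp8 with Il1r2 was 0.636. Without the 2 farthest samples the r of Mmp8 was 0.645 for S100a8 and 0.72 for Il1r2. Mmp9 and S100a8 had r = 0.681 and rho = 0.692 (permutation p = 0.0079 and 0.00776, adjusted 0.0419 and 0.0349), but r was 0.497 without the 2 farthest samples.

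Ltf and Lcn2, both secreted antimicrobial proteins that deprive bacteria of iron, ran opposite to each other. Their r was -0.863 and rho -0.89 (both permutation p = 7e-05, adjusted 0.00084, n = 14). It was -0.862 without the 2 farthest samples and -0.891 with group means removed, so the relation held within groups.

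**Figure D3:**
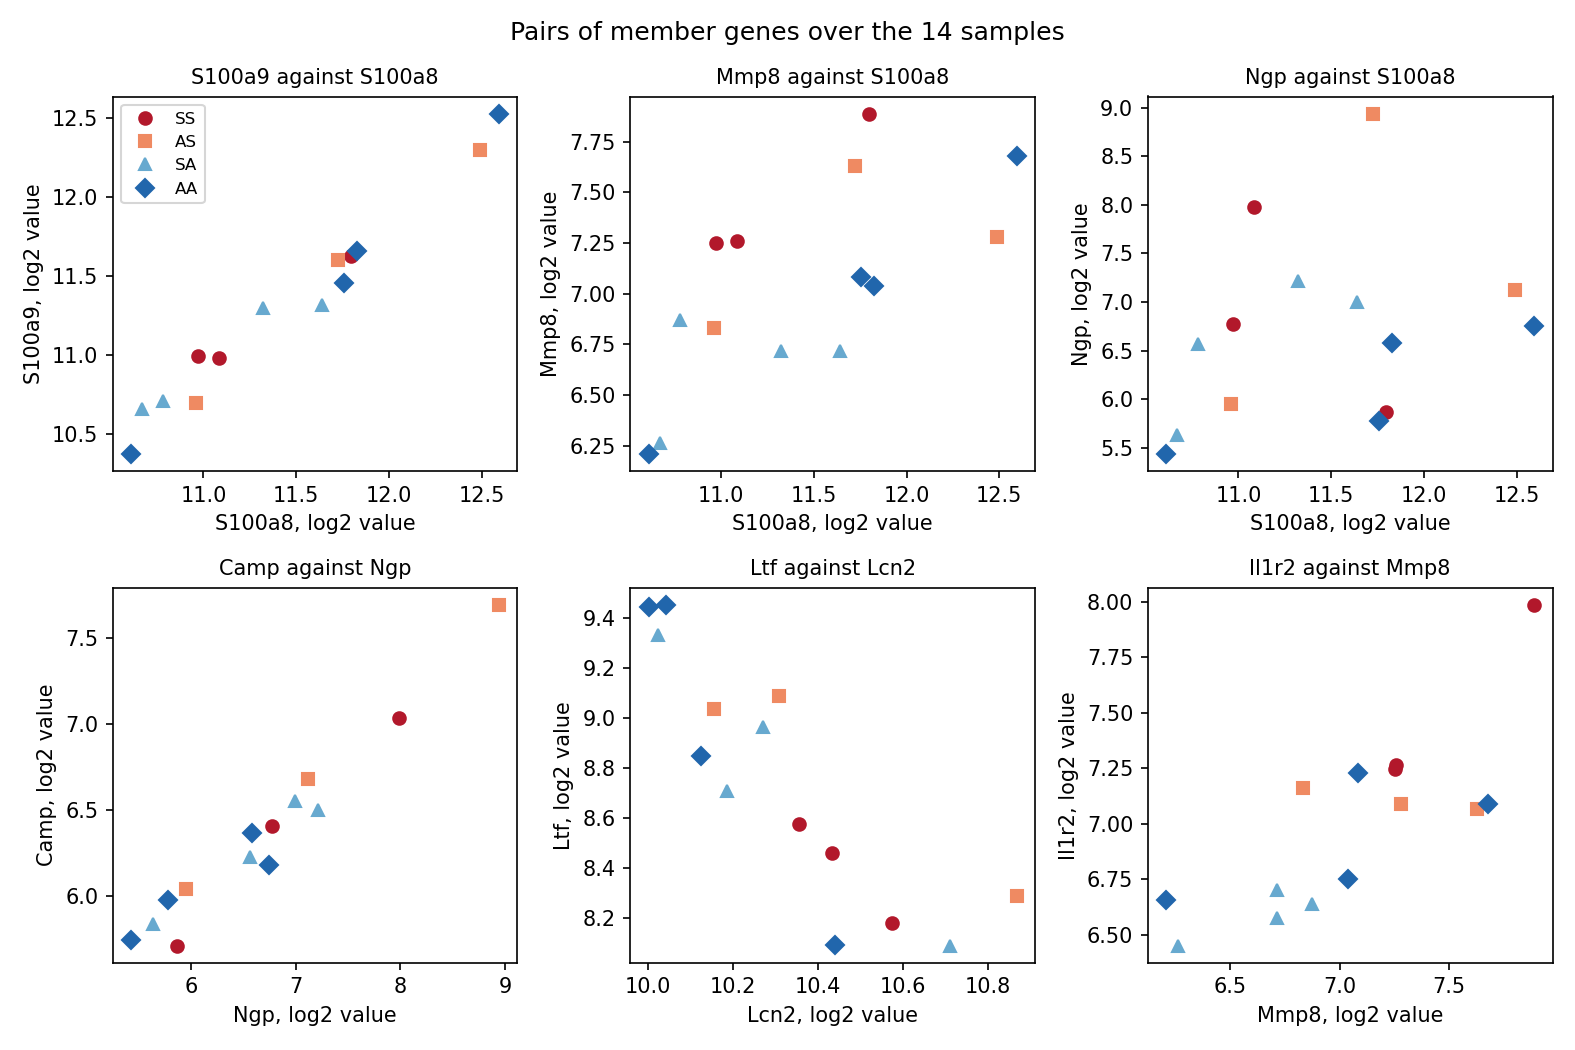
Log2 values of 6 pairs of genes over the 14 samples, both axes in log2 units, with the group of each sample shown by symbol and colour. S100a8 and S100a9, and likewise Ngp and Camp, lie close to a rising line, S100a8 and Ngp scatter, and Ltf falls as Lcn2 rises.

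Other neutrophil genes were read from lists to see whether the set moved with them. The list of other neutrophil genes held 38, of which 31 were measured. It holds receptors such as Csf3r and Cxcr2, and also bright genes such as Hp and Chil1 (mean log2 values 13.21 and 12.33). None of the 31 passed in AS minus AA, SS minus SA, SA minus AA or SS minus AA (limma). In these comparisons 8, 1, 4 and 3 of the 31 were below an unadjusted p of 0.05, against 20.3%, 14.5%, 6.23% and 10.3% of all probe sets. In SS minus AS 1 gene passed, against 0.968% of all probe sets. It was G0s2, a lipase inhibitor, which was lower in SS by -0.81 ± 0.17 (limma adjusted p = 0.04). That call was kept in 5 of 14 fits with a sample left out, with differences between -1.05 and -0.63, so most left-out samples end it. The nearest other gene was Trem1, an activating receptor of neutrophils and monocytes, at 0.49 ± 0.12 in SS minus SA (limma adjusted p = 0.0544) and 0.43 ± 0.12 in AS minus AA (limma adjusted p = 0.0804). The median of the 31 genes was 0.06 in AS minus AA and 0.01 in SS minus SA. Of the primary granule genes, 6 of 8 were measured and none passed in any comparison. At most 1 of the 6 was below an unadjusted p of 0.05, against 6.23% to 20.3% of all probe sets, depending on the comparison. Mpo (myeloperoxidase) was dim, with a mean log2 value of 4.51, and differed by 0.37 ± 0.12 in AS minus AA (limma adjusted p = 0.117).

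The level of this list of other neutrophil genes, as a mean over its genes relative to the AA average, ran from -0.17 to 0.01 in SS lungs, from -0.08 to 0.29 in AS lungs, from -0.22 to -0.08 in SA lungs and from -0.25 to 0.27 in AA lungs. S100a8 followed it across the samples, with r = 0.929 and rho = 0.912 (both permutation p = 2e-05, adjusted 0.00072 over 72 pairs of a gene and a list, n = 14). S100a9 did so too, with r = 0.928 and rho = 0.921 (permutation p = 2e-05 and 1e-05, adjusted 0.00072). Without the 2 farthest samples r was 0.854 for S100a8 and 0.835 for S100a9, and with group means removed it was 0.929 and 0.942. Ngp and Camp had r of 0.26 and 0.21 with the same list, and rho of 0.314 and 0.257 (permutation p from 0.273 to 0.466, adjusted 0.547 to 0.714). Mmp9 had r = 0.718 and rho = 0.833 (permutation p = 0.0044 and 0.00038, adjusted 0.0453 and 0.00547), with r = 0.592 without the 2 farthest samples.

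The genes most like S100a8 by Pearson r over the 14 samples, among 11035 genes with a mean log2 value of at least 7 other than the members, were Slfn4 (r = 0.903), Pla2g7 (0.896), Clec4d (0.893), Csf3r (0.89) and Cxcr2 (0.881). All but Pla2g7 are on the list of other neutrophil genes. Those most like Ngp were Ccdc180 (0.769), Aldh1a7 (0.744), 9030607L20Rik (0.698), 2610316D01Rik (0.696) and Gfra3 (0.687), and none of the 5 is on a neutrophil list. Dimmer genes of these lists, such as Elane (mean log2 value 5.32), Prtn3 (6.19) and Cd177 (6.78), were under the level limit and not compared. Camp, as a member, was left out too, so their absence here is no result. The genes most like Il1r2 were Bach1 (0.932), P2ry13 (0.888), Duoxa1 (0.876), Pex11a (0.86) and Sla (0.843). These are descriptions of 14 samples in 4 groups, with no test.

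Among the ligands and receptors of the pathway, 15 of 16 genes for neutrophil recruitment and growth (chemokines, adhesion molecules and colony-stimulating factors) were measured. None passed in any comparison (limma), with at most 4 of the 15 below an unadjusted p of 0.05. The count of 4 came in AS minus AA and in SS minus AS, against 20.3% and 13.6% of all probe sets. Cxcl2, a chemokine for neutrophils, differed by 1.97 ± 0.53 in AS minus AA (limma adjusted p = 0.0695). Of 11 measured S100 partners and receptors of 12 listed, 1 passed in AS minus AA, against 1.55% of all probe sets, and none in the other comparisons. It was Tlr4, the receptor of calprotectin, which fell by 0.29 ± 0.07 (SE) in AS lungs against AA lungs (limma adjusted p = 0.0393). That call was kept in 4 of 14 fits with a sample left out (differences between -0.34 and -0.23). None of 13 measured genes of the interleukin-1 system passed in any comparison, nor did any of 13 metalloprotease inhibitors and substrates or any of 7 iron and siderophore genes (limma). At most 2 of each list were below an unadjusted p of 0.05, against 6.23% to 20.3% of all probe sets, depending on the comparison. In SS minus SA, where Il1r2 rose, its ligand Il1b differed by -0.46 ± 0.30 and the signalling receptor Il1r1 by -0.03 ± 0.08 (limma adjusted p = 0.526 and 0.919).

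Of 8 measured granulocyte transcription factors, 2 passed in AS minus AA, against 1.55% of all probe sets. Cebpb rose by 0.66 ± 0.13 and Cebpd by 0.78 ± 0.18 in this comparison (limma adjusted p = 0.0268 and 0.0483). With a sample left out, Cebpb passed in 11 of 14 fits (0.47 to 0.81), but not without AA replicate 1, AA replicate 2 or the AS pair, and Cebpd in 3 of 14 (0.73 to 0.81). In SS minus SA, where 1.64% of all probe sets passed, Cebpd rose by 0.77 ± 0.18 and passed by a narrow margin (limma adjusted p = 0.04998), and in 2 of 14 fits with a sample left out (0.62 to 0.93). Both factors are also induced in many cell types by stress and steroid hormones. In the resistin family, to which Retnlg belongs, all 3 other genes were measured, and Retnla, which airway epithelium and macrophages secrete in type 2 responses, rose by 1.05 ± 0.14 in SS minus SA, by 0.66 ± 0.14 in AS minus AA and by 0.94 ± 0.14 in SS minus AA (limma adjusted p = 0.00204, 0.0366 and 0.0112). Its call was kept in 14, 8 and 13 of 14 fits with a sample left out, for differences from 0.88 to 1.16, from 0.62 to 0.76 and from 0.77 to 1.05, and the last was lost without the SS pair (0.77, limma adjusted p = 0.0525).

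Because Il1r2 is a known glucocorticoid-induced gene, 14 other such genes were read beside it. In SS minus SA 9 of the 14 rose (limma), against 0.773% of all probe sets. The median difference was 1.09 beside -0.01 over all named genes. The largest differences are given next. The largest was Fkbp5, a chaperone of the glucocorticoid receptor, at 1.97 ± 0.35 (limma adjusted p = 0.01), followed by the clock gene Per1 at 1.498 ± 0.226 (limma adjusted p = 0.0044) and the cell cycle inhibitor Cdkn1a at 1.49 ± 0.27 (limma adjusted p = 0.0109). With a sample left out these calls were kept in 13, 14 and 12 of 14 fits, for differences of 1.79 to 2.18, 1.30 to 1.73 and 1.30 to 1.64, and the losses came without SS replicate 3 (Fkbp5 and Cdkn1a) or the SS pair (Cdkn1a). In AS minus AA 2 of the 14 rose (limma), against 1.55% of all probe sets in either direction. Errfi1 rose by 1.02 ± 0.23 and Dusp1 by 0.73 ± 0.14, kept in 6 and 11 of 14 such fits, and the median over the list was 0.43. In SS minus AA 2 rose (limma), against 0.4% of all probe sets in either direction. Fkbp5 rose by 1.84 ± 0.35 and Tsc22d3 by 0.85 ± 0.17, kept in 8 and 6 of 14 such fits, with a list median of 0.57. In SS minus AS none rose past the threshold and Dusp1, a phosphatase that acts on MAP kinases, was lower by a log2 difference of -1.03 ± 0.15 (limma adjusted p = 0.00531, kept in 14 of 14 fits), against the direction of Il1r2, with a list median of 0.37.

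The mean of these 14 genes relative to AA ran from 0.71 to 0.85 in SS lungs, from 0.25 to 0.47 in AS lungs, from -0.68 to -0.02 in SA lungs and from -0.26 to 0.25 in AA lungs, so that the group averages of the list stood in the same order as those of Il1r2. Il1r2 and this mean had r = 0.826 and rho = 0.881 (permutation p = 0.00015 and 0.00017, adjusted 0.0027 and 0.00306 over 72 pairs, n = 14), and r was 0.774 without the 2 farthest samples. With group means removed r was 0.327, so the relation lay mostly between the groups. The list was chosen with earlier results known, and 9 of its 14 genes rose in SS minus SA, as Il1r2 did. The permutations ignored the groups, so these p-values are no independent support for a link between Il1r2 and the list. S100a8 had r = 0.08 and rho = 0.196 with the same list (permutation p = 0.784 and 0.502, adjusted 0.88 and 0.71).

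Marker lists of other cell types were read in SS and SA, the groups of the Il1r2 call. No gene of the 3 lists that follow passed in SS minus SA (limma), with 6 B and plasma cell, 3 T and NK cell and 4 monocyte and macrophage genes below an unadjusted p of 0.05 (14.5% of all probe sets), and the list means were not tested. Relative to AA, the mean of 11 measured B and plasma cell genes of 12 ran from -0.84 to -0.40 in SS lungs and from -0.25 to 0.08 in SA lungs. For 10 T and NK cell genes of 13 the ranges were -0.31 to -0.21 in SS and -0.14 to 0.08 in SA, and for 13 monocyte and interstitial macrophage genes of 14 they were -0.23 to -0.18 in SS and -0.14 to 0.16 in SA. The ranges of SS and SA lungs did not overlap on any of the 3 lists, with SS lower, while Il1r2 was higher in SS. They did overlap on the alveolar macrophage list, at 0.04 to 0.08 in SS and -0.10 to 0.09 in SA. The lists of epithelium, platelets, erythroid cells, and eosinophils, mast cells and basophils overlapped too. The 3 lists are thus shown because they separated. Of single probe sets, 16.7% had no overlap between SS and SA. In other comparisons 7 genes of the cell type lists passed (limma), where 1.55% (AS minus AA) and 0.968% (SS minus AS) of all probe sets passed. In AS minus AA these were the mucin Muc5ac at 0.50 ± 0.07, the secretoglobin Scgb3a1 at 0.89 ± 0.19, the zinc transporter Slc39a2 at 0.36 ± 0.07 and the antibody joining chain Jchain at -1.33 ± 0.30, kept in 14, 7, 9 and 3 of 14 fits with a sample left out. In SS minus AS they were the B cell genes Cd79a at -1.31 ± 0.22 and Cd22 at -0.51 ± 0.10 and the receptor Kit at -0.50 ± 0.09, kept in 13, 11 and 11 of 14 such fits. Kit came from the list of eosinophils, mast cells and basophils. Its mean log2 value of 11.32 was far above those of the mast cell genes Cpa3 (6.01) and Mcpt4 (6.13), and a change of mast cells was not tested. Erythroid genes (8 of 13) reached 1.46 and proliferation genes (13 of 14) reached 1.11 in SA replicate 4, the highest on both lists, and without that sample the Il1r2 difference was 0.92. The part of these cell types or of glucocorticoid-induced genes in the Il1r2 difference was not tested.

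**Figure D4:**
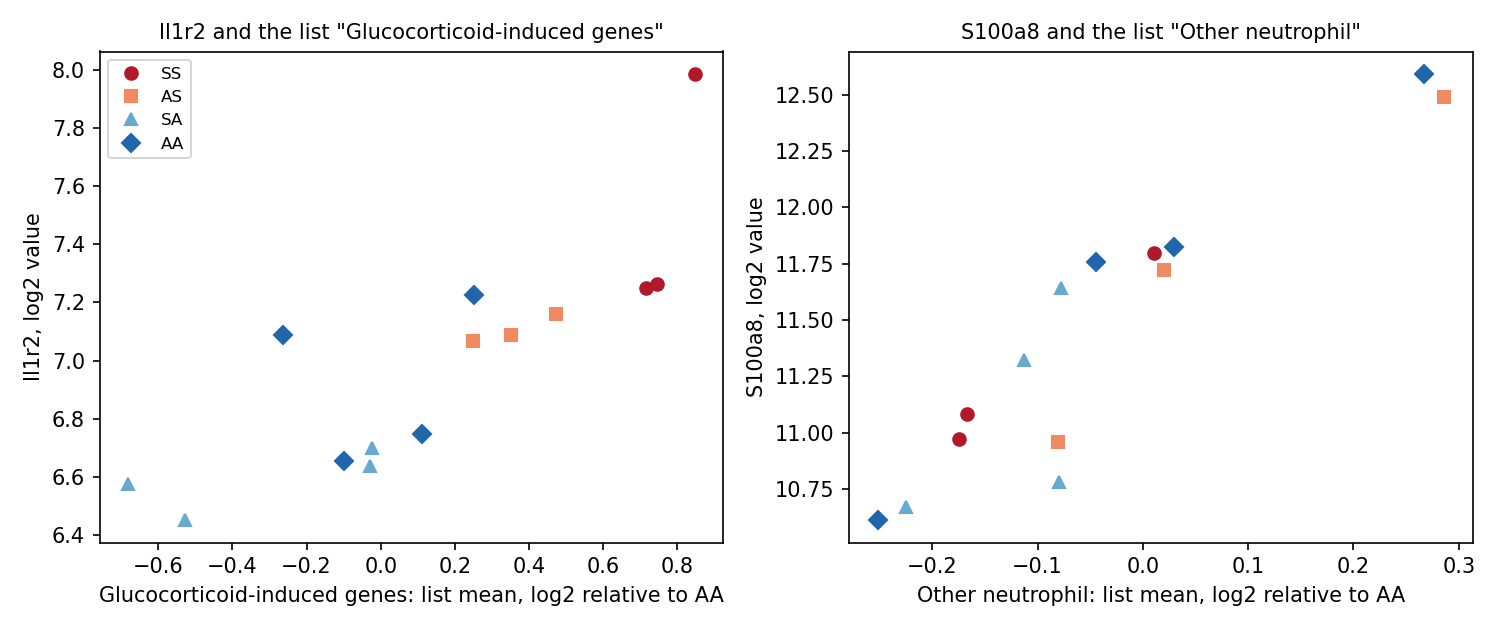
Log2 values of Il1r2 and S100a8 (vertical axes) against the mean of a gene list relative to AA (horizontal axes, log2) in the 14 samples. Il1r2 rises with the glucocorticoid-induced genes mainly from group to group, with SS lungs at the upper right, while S100a8 rises with the other neutrophil genes across samples of all 4 groups.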

How the data were processed

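Expression in the left lung was measured on 16 Affymetrix arrays in 4 groups. The authors deposited 1 log2 value per probe set and array. The scale was read from the values, which run from 2.4 to 15.11, and the array medians lie between 6.9 and 6.93. How they were normalized and summarised is not given in the sources used here. The one tool named is limma, per the submitters' processing notes, without a version. Without raw intensities no detection calls could be made, and the number of arrays limits the precision. The genes, the other gene lists and the tests were chosen with earlier results of these data known.

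Of 45101 probe sets, 64 controls were left out. Of the 45037 tested, 34945 had 1 symbol in the platform annotation, 932 had several and 9160 had none, and 34741 symbols were updated through Entrez identifiers to RefSeq. Probe sets with several symbols were not named. The brightest probe set stood for a gene, and the second Mmp9 probe set is given where it differs. Other genes were named where they passed, up to 3 per list and comparison, with up to 2 further neutrophil genes.

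Replicate arrays were compared over the 300 most variable bright probe sets. The root mean square difference, divided by that over the 3000 least variable, was 1.35 for AS replicates 3 and 4 and 1.24 for SS replicates 1 and 2, against 2.84 to 5.96 for the other 22 pairs within groups. Each near-identical pair was averaged, which left 14 samples. No batch is labelled, so none was fitted.

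A mean per group was fitted with limma 3.58.1 (R 4.3.3) with 10 residual degrees of freedom, and its two-sided p-values were adjusted in each comparison over every probe set (Benjamini-Hochberg), with a threshold of 0.05. The fit was tested on simulated data. Errors after ± are standard errors from limma where SD is not written. Correlations used 100000 two-sided permutations of the samples, which ignored the groups (SciPy 1.17.1). The alternatives were 14 fits with a sample left out and 7 other settings.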

Additional observations from a re-analysis of the deposited data

Results flagged for a closer look

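Il1r2 and Mmp8 are listed because their samples lay on opposite sides of the comparison group at the 2 adult exposures, although no difference with SHS in utero passed for either gene (limma adjusted p = 0.34 and 0.782 for SS minus AS, 0.785 and 0.895 for SA minus AA). In adults that breathed SHS, all 3 SS lungs were above the AS mean for both genes, and in adults that breathed air, all 4 SA lungs were below the AA mean for both. For Mmp8 the margin was slight, with the SS pair at 7.259 and SS replicate 4 at 7.251 beside an AS mean of 7.248. AS replicates 1 and 2, at 7.63 and 7.28, lay above these SS samples. The difference between these in-utero effects was 0.73 on the log2 scale for Il1r2 (0.732753, standard error 0.23) and 0.58 for Mmp8 (0.578435, standard error 0.39). The limma interaction test did not pass for either gene (adjusted p = 0.291 and 0.706). No sample of a group of 4 stood far from the others in any gene of the set by Dixon's test at its 95% critical value, and groups of 3 samples were not tested.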

How the results depend on the processing

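The count of probe sets of the set past the threshold changed under 1 of 21 alternatives and in 1 comparison: in SS minus SA it was 0 without SS replicate 3, so with a sample left out it ranged from 0 to 1. In the 5 other comparisons it was 0 under each of the alternatives run (limma), with 1 or 2 of the 10 below an unadjusted p of 0.05 in the reported fit. The SS minus SA difference of Il1r2 ranged from 0.66 to 1.03 with a sample left out, and limma's adjusted p was 0.0044 to 0.0301 under the 7 other settings. Of 1244 recomputed differences of the 10 probe sets of the set, 47 changed sign, none of them past the threshold before or after, and 1 lost its call. Calls of other named genes were lost more often, as given beside them.

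Counts over all probe sets moved far more. In AS minus AA, 699 passed, against 3565 with 16 separate arrays, 47 with only the groups compared in the fit and 179 with 1 probe set per gene, and from 185 to 905 with a sample left out. In SS minus SA, 737 passed, against 1345 with 16 arrays and 470 with 1 probe set per gene, and from 171 to 1014 with a sample left out. SS minus AS gave 436, against 2214, 131 and 134 under those 3 settings, SS minus AA gave 180, against 406, 130 and 138, and the interaction gave 59, against 330 with 16 arrays and 27 with 1 probe set per gene. With a sample left out these ranged from 136 to 507, from 34 to 266 and from 23 to 115. With 16 arrays the near-identical pairs count as separate samples. With only the groups compared in the fit, the calls of Tlr4, Retnla, Cebpb, Dusp1, Errfi1, Slc39a2, Jchain, Scgb3a1 and Muc5ac in AS minus AA, of Cebpd in SS minus SA, of G0s2, Dusp1, Kit and Cd22 in SS minus AS and of Retnla and Fkbp5 in SS minus AA were lost.

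With the replicate number as a block over all 16 arrays, SS minus SA kept the Il1r2 call (0.85, limma adjusted p = 0.00972). The block gave counts of 3761, 1268, 2364, 431 and 529 over all probe sets in AS minus AA, SS minus SA, SS minus AS, SS minus AA and the interaction. Same-numbered arrays of different groups had correlations of their deviations from -0.157 to 0.251 (24 pairs), beside -0.297 to 0.311 for other numbers (72 pairs). Of the 16 arrays, 5 correlated best with their own number. No pairing by number was seen, though these values cannot exclude one. Signal over background was not available, which leaves the dim probe sets, such as Mpo, without a detection limit.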

Other observations

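Ltf and Lcn2, which ran opposite to each other, were also set against the cell type lists. Ltf had r = 0.835 and rho = 0.873 with the mean of 11 B and plasma cell genes (permutation p = 0.00013 and 0.00014, adjusted 0.0027 and 0.00306 over 72 pairs, n = 14). Without the 2 samples farthest from the median r was 0.821, and with group means removed it was 0.87. Mmp9 had r = 0.77 and rho = 0.767 with the same list (permutation p = 0.00115 and 0.00206, adjusted 0.0166 and 0.0212), with 0.86 without the 2 farthest samples and 0.615 with group means removed. Lcn2 had r = -0.641 and rho = -0.776 with it (permutation p = 0.0137 and 0.00165, adjusted 0.11 and 0.0198), with -0.556 without the 2 farthest samples and -0.711 with group means removed. Lcn2 had r = 0.719 and rho = 0.697 with 14 alveolar macrophage genes (permutation p = 0.00396 and 0.00747, adjusted 0.0453 and 0.0622), and r was 0.514 without the 2 farthest samples. With the epithelial list, Ltf and Lcn2 had r = 0.474 and -0.118 (permutation adjusted p = 0.316 and 0.812). With group means removed these were 0.791 and -0.557. With the glucocorticoid-induced list they had r = -0.513 and 0.561 (permutation adjusted p = 0.285 and 0.198), and -0.621 and 0.688 with group means removed. The B and plasma cell list ran from -0.84 to -0.40 relative to AA in SS lungs, from -0.28 to 0.17 in AS lungs, from -0.25 to 0.08 in SA lungs and from -0.30 to 0.34 in AA lungs. Differences between these correlations were not tested, nor was what ties the genes to the lists.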
